A study of Mus musculus with 12 samples.

Results

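The genes described are 76 cytosolic ribosomal protein genes of the mouse, 46 of the large subunit (symbols beginning with Rpl) and 30 of the small subunit (Rps), out of 24394 genes listed in every library. They were chosen by symbol: Rpl or Rps followed by a number with or without the letter a, or p0 to p2, 4x or a, with a value above 0 in at least 4 libraries. All 76 symbols that matched were above 0 in all 12 libraries, and all 76 passed the filter on low values. The symbol rule leaves out the genes for a few proteins of the same ribosome, among them Rps3a1 and Fau, which are given separately.

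The RNA came from endothelial cells, the cells that line blood vessels, sorted by FACS from the lungs of mouse pups at postnatal day 5, and each group had 4 libraries. WT is the wild type. L12-ECKO carried floxed Lats1 and floxed Lats2 with VE-cadherin-CreERT2, a Cre recombinase that is driven by an endothelial promoter and acts after an inducer; it removes the kinases that restrain the co-activators YAP and TAZ. L12YT-ECKO carried the same floxed alleles and Cre together with floxed Yap and floxed TAZ. All mice were C57BL/6J; whether WT pups carried the Cre or received the inducer is not given in the sources used here. Whether each library stands for a different pup is not said, so each p-value measures only the spread between libraries, which may be partly technical. Judged from Xist and Ddx3y, each group held libraries of both sexes, so by that call those of a group were not all from the same pup.

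A cytosolic ribosome joins a small subunit, which reads the mRNA, to a large subunit, which forms the peptide bond. Each subunit is built on ribosomal RNA from proteins that are, with few exceptions, needed in equal number, and surplus copies are degraded. Most of their mRNAs begin with a 5′ terminal oligopyrimidine (TOP) tract, a C followed by a run of pyrimidines. Through that tract mTORC1 signalling and the protein Larp1 control their translation together, so that much of their regulation is not visible in mRNA levels. YAP and TAZ are known for driving growth programmes, and ribosomal protein mRNAs are among the most abundant of any growing cell.

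The TOP tract is described for most of these mRNAs, so it is shown for 5 of the members named below. These 5 were picked because they have it at the annotated start. Other named members with a listed promoter, among them Rpl4, Rpl11 and Rps12, lack it there. RefSeq promoters (GRCm38.p6, 250 bases before to 50 bases after the annotated start) were found for 56 members, 66 promoters in all. Each line gives 15 bases before the start and 15 from it, with the tract in capitals.
Rps6, chr4:86857353-86857382, minus strand: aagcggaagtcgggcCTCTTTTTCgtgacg
Rpl38, chr11:114668565-114668594, plus strand: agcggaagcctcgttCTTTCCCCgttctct
Rps15a, chr7:118116133-118116162, minus strand: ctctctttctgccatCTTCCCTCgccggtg
Rps10, chr17:27635230-27635259, minus strand: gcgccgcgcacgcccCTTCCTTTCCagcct
Rplp2, chr7:141447636-141447665, plus strand: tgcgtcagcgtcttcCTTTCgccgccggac
A C at the annotated first base followed by at least 4 pyrimidines was present in 13 of the 66 member promoters (19.7%), against 2.51% of all 32851 promoters and 2.29% of 11225 promoters of tested genes that are not members. CCGGAAG, the letters of a site for ETS factors, was found on either strand within the 300 bases of 36.4% of the member promoters, against 8.86% of all promoters and 17.2% of those of other tested genes. TATAAA lay 40 to 15 bases before the start in 0 of the 66 member promoters in 1.99% of all promoters and in 1.15% of those of other tested genes, so that a count of 0 does not set the members apart. These are matches of letters at annotated starts, and a promoter without a match shows only that the letters are not in that window.

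The members lie on 19 chromosomes, with 14 on chromosome 7 and 4 on X. Their annotated transcripts (GENCODE M21, GRCm38, the assembly also called mm10) have a median length of 815 bases, from 345 to 5179, against a median of 2895 bases for the genes tested. Each gene was given 1 transcript, which can be far longer than its coding part, as for Rps15a (5179 bases, 390 coding) and Rps20 (3706, 357). Whether these are the transcripts that were read was not tested. Libraries were made with QuantSeq, which reads near the 3′ end of each transcript, so a value counts transcripts rather than their length. The values are the authors' normalized log2 values, and the depth behind them is unknown. Highest over the 12 libraries were Rplp1, an acidic protein of the stalk that recruits elongation factors (mean value 14.03), Rpl22, a large-subunit protein that also binds other RNAs (14.004), and Rps20, of the head of the small subunit (13.46). Lowest were Rpl23a (7.29), which sits where the nascent chain leaves the ribosome, Rpl17 (7.64) and Rpl29 (7.77), and reads shared with copies of these genes could move any of these levels. The search for copies described below found 1 for Rplp1, 2 for Rpl29 and 0 for Rpl22, Rps20, Rpl23a and Rpl17. It does not give the full extent of sharing.

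The libraries had from 9850 genes above 0 (L12-ECKO replicate 3) to 13078 (L12-ECKO replicate 4). The files of 5 libraries carry 32 rows out of register with their gene names, none of them a member's row: 3 of L12-ECKO (replicates 2 to 4) and 2 of L12YT-ECKO (replicates 3 and 4), called libraries with displaced rows here. Female pups gave 5 libraries, judged from Xist and Ddx3y: WT replicate 4, L12-ECKO replicates 2 to 4 and L12YT-ECKO replicate 3. The targeted genes were checked first. Wwtr1, which encodes TAZ, fell in L12YT-ECKO against WT (log2 difference -3.0, SE 0.35; adjusted p = 0.000662 by limma), and Yap1 fell against L12-ECKO (-2.25, SE 0.41; adjusted p = 0.0388) but did not pass the test against WT (-2.08, SE 0.41; adjusted p = 0.184). Lats1 was at 7.40, 1.28, 0 and 5.78 for L12-ECKO and 7.90, 0, 7.11 and 7.53 for L12YT-ECKO, against 5.32 to 7.45 in WT, so some deletion libraries were at or above WT. Lats2 did not mark the deletion either: its values were 9.71 to 10.33 in L12-ECKO and 8.42 to 9.34 in WT, and a read near the 3′ end need not lie in the deleted part. Ctgf, a known target of YAP and TAZ, was 12.71 to 14.74 in L12-ECKO against 5.84 to 9.08 in WT and 8.70 to 10.16 in L12YT-ECKO. The endothelial markers Pecam1 (14.50 to 15.20) and Cdh5 (12.71 to 13.45) were high in all 12 libraries.

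The member median, the median deposited value of the 76 genes, showed no difference between the groups that exceeded the spread between libraries. It was 10.60, 10.51, 10.47 and 10.61 for the WT libraries in replicate order, 10.55, 10.78, 10.66 and 9.72 for L12-ECKO and 10.49, 10.98, 10.25 and 10.14 for L12YT-ECKO. The WT libraries lay within 0.14 of each other, while L12-ECKO replicate 4 and L12YT-ECKO replicates 3 and 4 were lower than any WT library and L12-ECKO replicates 2 and 3 and L12YT-ECKO replicate 2 were higher than any. Averaged over the 4 libraries, it was 10.55 ± 0.07 (SD) for WT, 10.43 ± 0.48 for L12-ECKO and 10.46 ± 0.37 for L12YT-ECKO. In bulk RNA, fewer cells of a type and less of an mRNA per cell cannot be told apart. The members' share of all values summed on the linear scale ran from 1.30% in L12YT-ECKO replicate 4 and 1.31% in L12-ECKO replicate 4 to 2.34% in L12YT-ECKO replicate 2. It was 1.73% to 1.93% in the WT libraries.

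**Figure D1:**
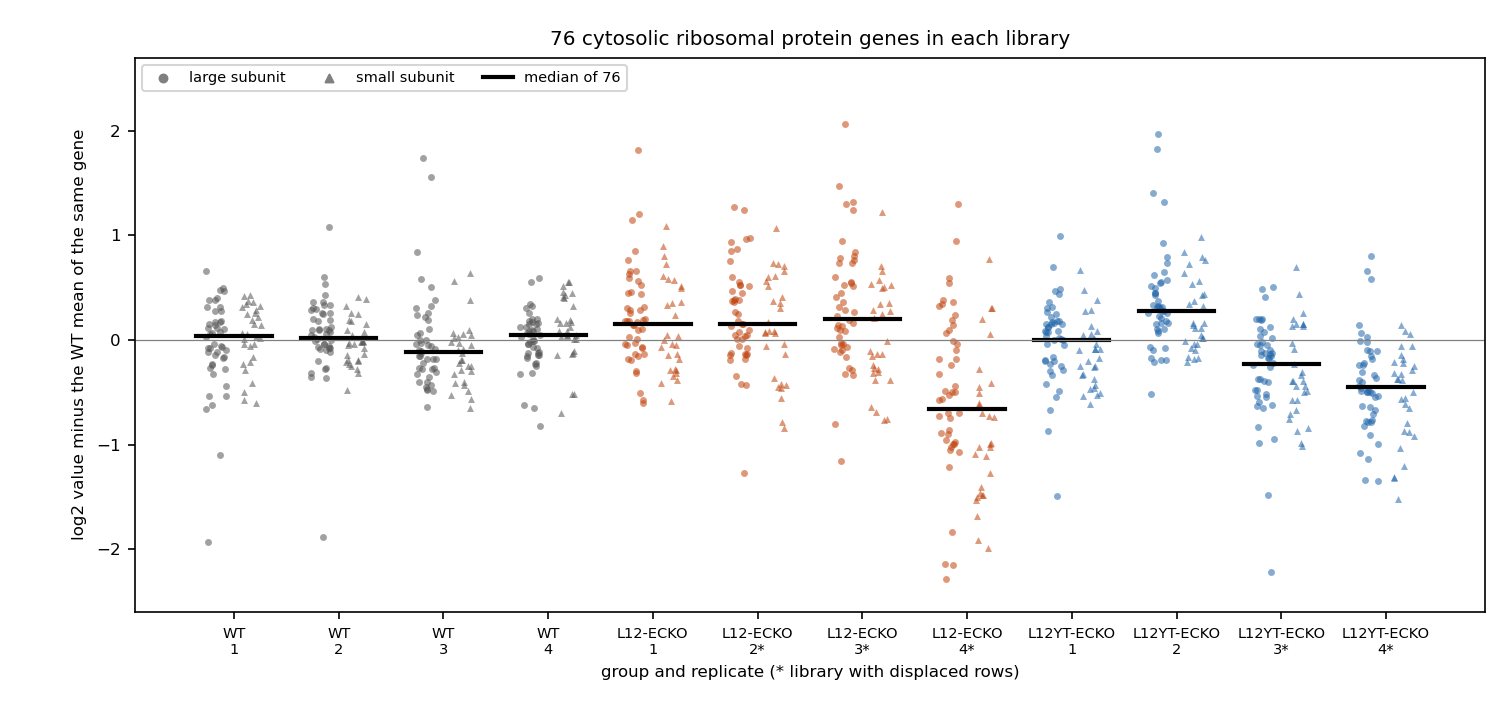
Deposited log2 value of each of the 76 members minus its WT mean (y axis) in the 12 libraries (x axis); circles are large-subunit genes, triangles small-subunit genes, black bars the median of the 76, and an asterisk marks a library with displaced rows. The medians of L12-ECKO replicate 4 (-0.66) and L12YT-ECKO replicates 3 and 4 (-0.23 and -0.45) lie below 0, and the highest is that of L12YT-ECKO replicate 2 (0.27).

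Most members took part in these library shifts, though not equally. Relative to the WT mean of each gene, the median shift was -0.66 in L12-ECKO replicate 4, where 58 of 76 members were below their WT mean and 48 below all 4 WT libraries. Small-subunit members stood lower there (median shift -0.99) than large-subunit members (-0.50). The shift of single members in that library ran from -2.28 for Rpl23a to 1.30 for Rpl4. In L12YT-ECKO replicate 4 the median shift was -0.45, with 67 members below the WT mean and 0 above the WT range, and in L12YT-ECKO replicate 3 it was -0.23, with 55 below. L12YT-ECKO replicate 2 stood on the other side, with a median shift of 0.27, 59 members above their WT mean and 2 below the WT range. L12-ECKO replicates 1, 2 and 3 had median shifts of 0.16, 0.16 and 0.20.

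The 3 libraries with the lowest member medians also had the most genes above 0 (12967 to 13078) and low values for other short transcripts. Among tested genes that are not members and whose annotated transcript is shorter than 600 bases (278 genes), the median shift from WT was -1.30 in L12-ECKO replicate 4, -0.53 in L12YT-ECKO replicate 3 and -0.74 in L12YT-ECKO replicate 4. The 22 members of that length had median shifts of -0.99, -0.44 and -0.44 in the same libraries. In L12-ECKO replicate 4 the shift correlated with log2 transcript length at r = 0.22 (rho 0.21) across the 76 members and r = 0.19 (rho 0.17) across 11131 other genes, where genes of a library are not independent. Within that library the 20 members of 1000 to under 2000 bases had a median shift of -0.73, against -0.13 for the 2369 other genes of that length. All lengths here are those of 1 annotated transcript per gene, so the bin of a member may not be that of the transcript read. When each library's trend on log2 transcript length over all tested genes was taken out, an alternative chosen after seeing the data, the member shifts of these 3 libraries became -0.10, -0.24 and -0.24. That of L12YT-ECKO replicate 3 had been -0.23 before. Other libraries moved too: L12-ECKO replicate 2 from 0.155 to -0.14, L12-ECKO replicate 3 from 0.20 to 0.30 and L12YT-ECKO replicate 2 from 0.27 to 0.06. The WT libraries then lay between -0.07 and 0.07. The part that length, RNA quality or library preparation has in these shifts was not tested.

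**Figure D2:**
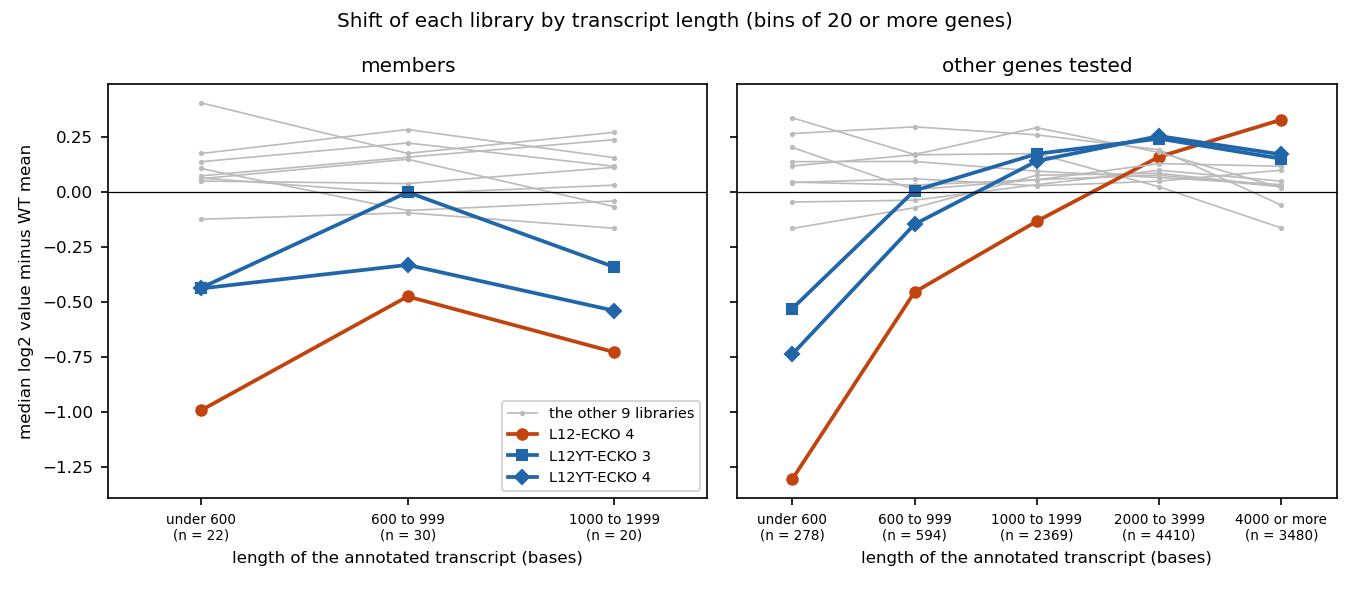
Median log2 value minus the WT mean (y axis) by length of the annotated transcript in bases (x axis), for members (left) and all other genes tested (right), a line for each of the 12 libraries; bins under 20 genes are not drawn. The lines of L12-ECKO replicate 4 and L12YT-ECKO replicates 3 and 4 are lowest for the shortest genes on the right (-1.30, -0.53 and -0.74) and above 0 from 2000 bases on, while on the left they stay below 0 in each bin.

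Markers of other cells also moved between libraries. The red cell and platelet list was low in the 3 libraries with low member medians (median shift -2.26, -0.92 and -1.53 in L12-ECKO replicate 4 and L12YT-ECKO replicates 3 and 4) and also in WT replicate 4 (-1.66), whose member shift was 0.05. The immune list was low in the same 3 libraries (-3.81, -2.95 and -1.59), and it was also below 0 in WT replicates 2 and 4 (-0.94 and -1.49) and L12-ECKO replicate 3 (-0.98). The summed log2 level of the red cell list was 14.18 to 16.78 for WT, 13.79 to 15.90 for L12-ECKO and 14.39 to 16.31 for L12YT-ECKO. Liver genes were higher in the 5 libraries with displaced rows (median shift 2.54 to 5.43), of which L12-ECKO replicates 2 and 3 had a member shift above 0. The summed liver level was 8.06 to 9.84 for WT, 9.11 to 11.73 for L12-ECKO and 8.52 to 10.68 for L12YT-ECKO. Immune markers reached 15.20 for S100a8 and 15.56 for S100a9 in L12-ECKO replicate 1, whose member shift was 0.16; the list's summed level was 6.85 to 11.63 in WT, 4.09 to 16.42 in L12-ECKO and 6.55 to 9.94 in L12YT-ECKO. Mesenchymal markers were lower in L12-ECKO than in WT for 5 of 6 genes (median difference -1.16, 3 at an unadjusted p under 0.05, 0 called), among them Pdgfrb, a pericyte receptor, at -3.095 ± 1.24 (adjusted p = 0.314). Over all genes tested, 51.0% were lower in that comparison and 12.2% had an unadjusted p under 0.05. Epithelial and mesenchymal lists had summed levels of 9.96 to 12.11 and 9.95 to 10.98 in WT, 9.64 to 11.95 and 9.03 to 10.001 in L12-ECKO, and 9.01 to 11.96 and 9.08 to 10.72 in L12YT-ECKO. The part of these cells in the member values was not tested.

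L12-ECKO against WT asks whether ribosomal protein mRNAs differ when endothelial cells lose Lats1 and Lats2. With limma over 11634 genes and Benjamini-Hochberg adjustment, 0 of 76 members passed an adjusted p of 0.05, where 0.481% of all genes tested did (56 genes). At an unadjusted p under 0.05 there were 5 members (6.58%), 3 higher and 2 lower, against 12.2% of all genes. The median member difference was -0.03, with 35 members higher and 41 lower, beside -0.02 over all genes tested. The 76 differences ran from -1.29 to 1.14. The median half-width of a member's 95% interval was 0.70, and for 38 of 76 members the interval lay wholly between -1 and 1 (log2), so that for those a change of a factor of 2 or more lies outside it. For the other 38 the interval reaches past -1 or 1, so that a change of that size is not excluded. The intervals are not adjusted for the number of genes, and the fit has no term for displaced rows or sex. Displaced rows were in 3 of 4 L12-ECKO and 0 of 4 WT libraries, and the same 3 were female, as was 1 WT library. The intervals therefore bound the difference between these libraries, not an effect of the deletion alone.

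L12YT-ECKO against WT, and L12YT-ECKO against L12-ECKO, ask whether the picture differs when YAP and TAZ are lost as well. In L12YT-ECKO against WT, 0 members were called by limma, with 0.0086% of all genes called (1 gene), and 0 had an unadjusted p under 0.05, against 6.24% of all genes. The median member difference was -0.12, with 27 higher and 49 lower, beside 0.08 over all genes. In L12YT-ECKO against L12-ECKO, 0 members were called (0.0688% of all genes, 8 genes), and 2 had an unadjusted p under 0.05, both lower, against 6.08% of all genes. The median member difference was -0.09, with 24 higher and 52 lower, beside 0.09 over all genes. Intervals lay within -1 to 1 for 47 and 50 of 76 members, from the same fit without terms for displaced rows or sex. The comparisons share libraries: both with WT use the WT libraries, and each deletion group enters 2 of the 3.

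These medians rested on few libraries. Without L12-ECKO replicate 4 the median member difference of L12-ECKO from WT was 0.14 in place of -0.03, with 26 of 76 members lower. Without L12YT-ECKO replicate 4 that of L12YT-ECKO from WT was 0.02 in place of -0.12, with 36 lower, and without L12YT-ECKO replicate 2 it was -0.23, with 63 lower. With a term for the displaced rows the 2 differences from WT were 0.19 and 0.10. Among the 7 libraries without displaced rows, which hold 1 L12-ECKO library, they were 0.16 and 0.12, and L12YT-ECKO against L12-ECKO was -0.05. Among the 5 with displaced rows, which hold no WT, L12YT-ECKO against L12-ECKO was -0.27. For L12YT-ECKO against L12-ECKO the median was -0.24 without L12-ECKO replicate 4 (68 lower), 0.00 without L12-ECKO replicate 3 (38 lower) and -0.01 without L12YT-ECKO replicate 4 (39 lower). Members called stayed at 0 in each of these fits.

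**Figure D3:**
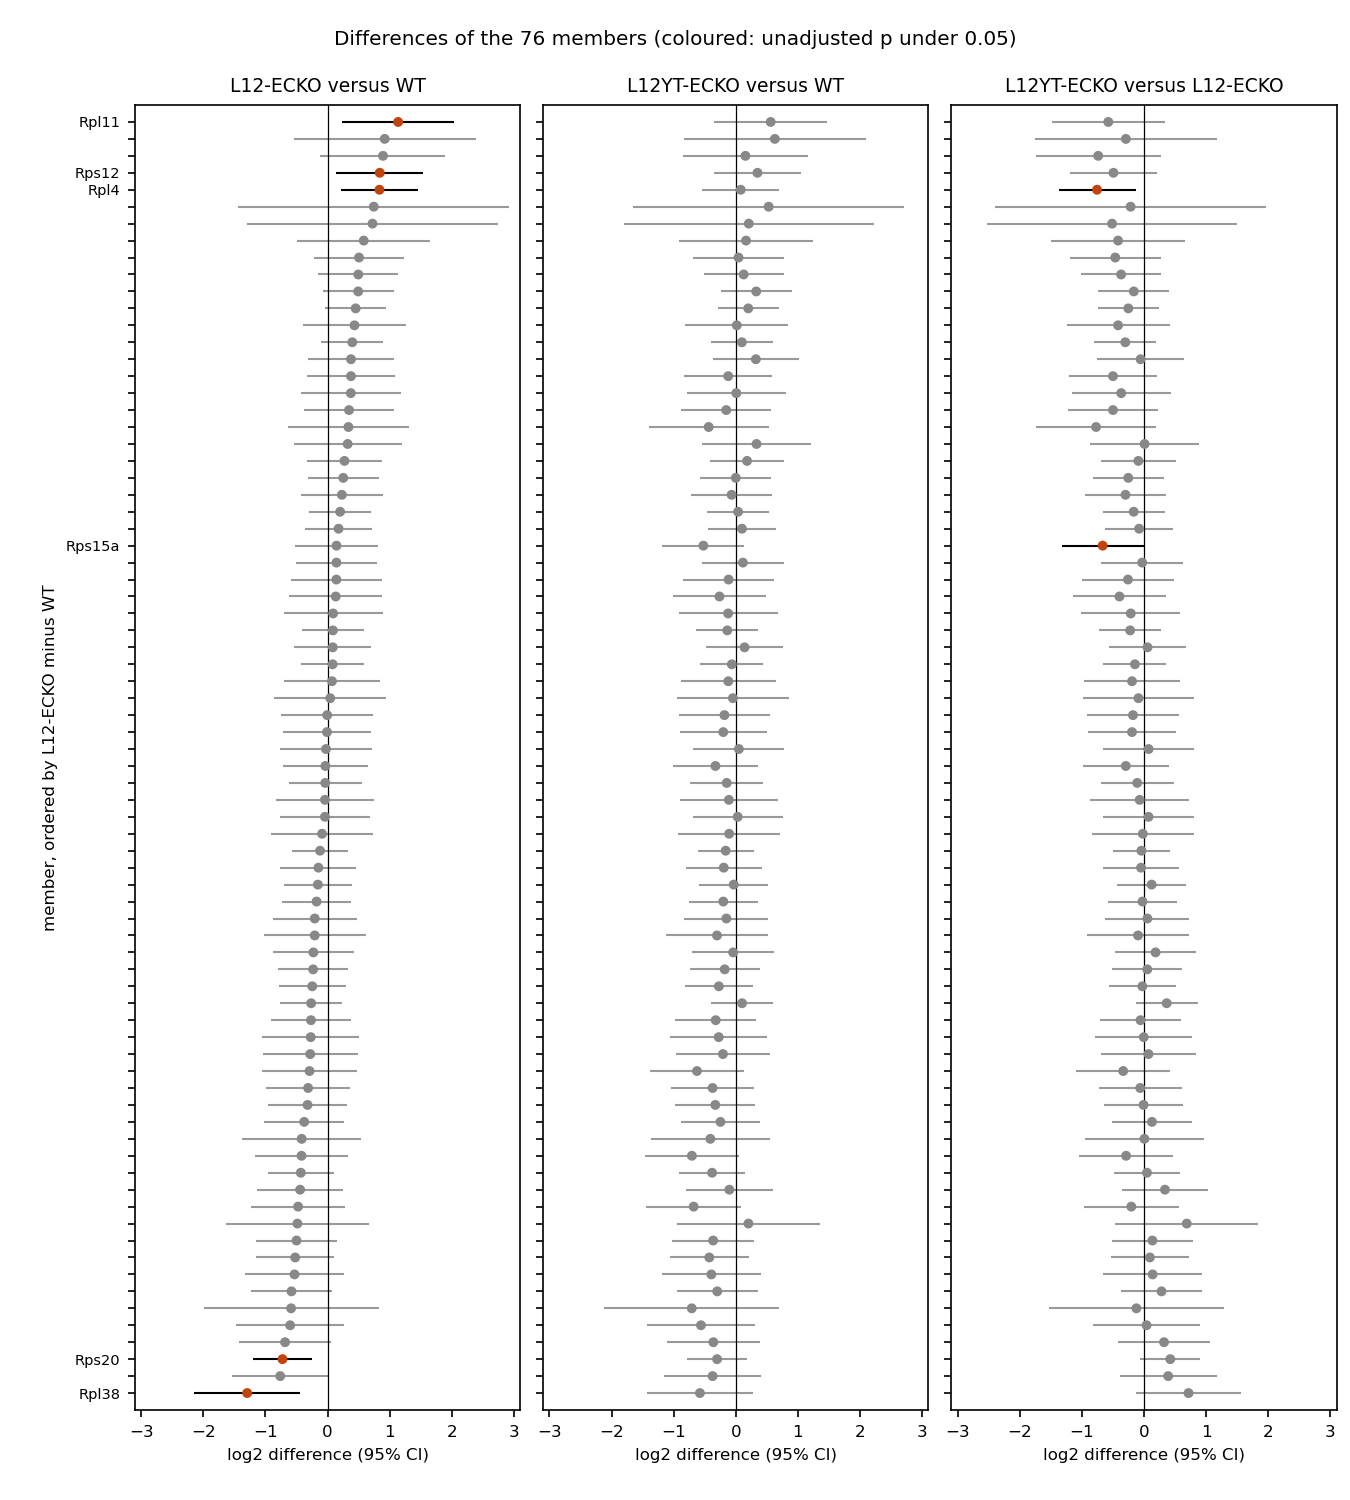
Log2 difference (x axis) with its 95% interval for each of the 76 members (y axis, ordered by L12-ECKO minus WT, with names for those with an unadjusted p under 0.05 in a comparison) in the 3 comparisons; coloured points have an unadjusted p under 0.05, and 0 members passed an adjusted p of 0.05. Coloured are 5 members in L12-ECKO against WT, 0 in L12YT-ECKO against WT and 2 in L12YT-ECKO against L12-ECKO.

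By subunit, the L12-ECKO libraries differed from WT by a median of 0.08 over the 46 large-subunit members (24 higher, 22 lower) and of -0.24 over the 30 small-subunit members (11 higher, 19 lower). In L12YT-ECKO against WT the medians were -0.12 and -0.24, and in L12YT-ECKO against L12-ECKO they were -0.17 and 0.00. The 13 members with a TOP tract at the annotated start had median differences from WT of -0.09 in L12-ECKO (3 higher, 10 lower) and -0.20 in L12YT-ECKO (2 higher, 11 lower), beside 0.07 and -0.10 for the 43 members whose listed promoters lack it. The difference between these sets was not tested.

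Groups that did not overlap were few. In L12-ECKO against WT, 4 members were higher in every L12-ECKO library than in any WT library (2.97% of all genes tested did so) and 1 was lower (3.36%). The 4 were Rpl11, Rpl4, Rps12 and Rps9, the last of them named after its values were seen, and the 1 was Rpl38. In L12YT-ECKO against WT there were 0 in either direction, where 2.54% of all genes were higher and 2.17% lower. In L12YT-ECKO against L12-ECKO, 0 were higher (2.75%) and 1 was lower (1.62%), Rpl4. As shares of the 76 members these counts are 5.26% and 1.32% in the first comparison and 1.32% in the last, so nothing particular to ribosomal protein genes is read from them.

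Among large-subunit members, Rpl38 (ENSMUSG00000057322.12, chr11:114668524-114672331, plus strand) had the smallest p in L12-ECKO against WT. Rpl38 is a small surface protein known from mice with skeletal patterning defects, in which translation of some Hox mRNAs is impaired. Its values were 12.41, 12.30, 12.02 and 12.46 for WT, 11.70, 11.03, 11.14 and 10.14 for L12-ECKO and 12.45, 12.67, 10.82 and 10.94 for L12YT-ECKO. All L12-ECKO libraries were below all WT libraries, and the L12YT-ECKO libraries split into a high and a low pair. L12-ECKO differed from WT by -1.29 ± 0.40 (SE; limma, adjusted p = 0.191) and L12YT-ECKO by -0.58 ± 0.40 (adjusted p = 0.838). The split followed the displaced rows: Rpl38 was 10.14 to 11.14 in the 5 libraries that have them and 11.70 to 12.67 in the 7 others. With a term for those rows the difference of L12-ECKO from WT was -0.28 (adjusted p = 0.905). Among the 7 other libraries, with L12-ECKO replicate 1 alone, it was -0.60. Rpl27a, of the large subunit and named here after its values were seen, was the only other member separated that way, at 11.50 to 12.13 against 12.24 to 12.998. Over all genes tested, 0.421% were lower in each of the 5 libraries than in any of the 7, and 0.662% were higher; among members it was 2 and 0.

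Rpl4 (ENSMUSG00000032399.8, chr9:64173375-64178666, plus strand) encodes a protein whose long loop lines the tunnel through which the nascent chain leaves. Its values were 10.38, 10.99, 10.73 and 10.39 for WT, 11.28, 11.49, 11.14 and 11.92 for L12-ECKO and 11.09, 11.14, 10.36 and 10.22 for L12YT-ECKO. All L12-ECKO libraries were above all WT libraries, and they were above all L12YT-ECKO libraries by a gap too small to show at 2 decimals (the closest pair both read 11.14). L12-ECKO differed from WT by 0.84 ± 0.30 (adjusted p = 0.249), and L12YT-ECKO from L12-ECKO by -0.76 ± 0.30 (adjusted p = 0.704). In L12-ECKO replicate 4, where most members were low, Rpl4 had its highest value. Within the libraries without displaced rows, with L12-ECKO replicate 1 alone, the difference of L12-ECKO from WT was 0.66. The step from L12-ECKO to L12YT-ECKO was -0.16 in those and -1.23 in the 5 others.

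Rpl11 and Rpl5 form, with 5S ribosomal RNA, the particle that binds Mdm2 and stabilizes p53 when ribosome assembly fails. Rpl11 (ENSMUSG00000059291.15, chr4:136028265-136053428, minus strand) was at 7.29, 8.05, 8.53 and 7.93 for WT, 9.10, 8.93, 9.42 and 8.90 for L12-ECKO and 8.65, 9.27, 8.15 and 7.98 for L12YT-ECKO. L12-ECKO lay above WT without overlap, by 1.14 ± 0.43 (adjusted p = 0.282), and L12YT-ECKO spanned both, 0.56 ± 0.43 above WT (adjusted p = 0.865). The difference of L12-ECKO from WT was 1.15 among the libraries without displaced rows, with L12-ECKO replicate 1 alone. Rpl5 had one of the smallest spreads of any member (residual SD 0.23), at 9.98 ± 0.29 for WT, 10.25 ± 0.06 for L12-ECKO and 10.16 ± 0.27 for L12YT-ECKO (SD, n = 4). Its difference from WT was 0.27 ± 0.29 in L12-ECKO (adjusted p = 0.73), and whether the 2 genes differ in their response was not tested.

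The stalk proteins, which recruit and activate the elongation factors, kept to within a log2 difference of 0.33 between group means. Rplp0, the stalk base, was 11.42 ± 0.21 for WT, 11.38 ± 0.73 for L12-ECKO and 11.09 ± 0.44 for L12YT-ECKO. Rplp1 was 13.95 ± 0.28, 14.20 ± 0.50 and 13.95 ± 0.56 (SD, n = 4). Rplp2 was 12.23 ± 0.23, 12.31 ± 0.26 and 12.09 ± 0.35 in the same order. The lowest value of Rplp1 in L12-ECKO was 13.46, in replicate 4, against 14.36 to 14.50 in the other 3.

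Other large-subunit members named by rank or role overlapped between groups. Rpl10, an X-linked protein added late in assembly, was 0.38 ± 0.31 lower in L12-ECKO than in WT on the log2 scale (values 10.45 to 11.26 in WT, 9.85 to 10.999 in L12-ECKO). Rpl41, the shortest coding sequence among the members at 75 bases, was at 11.49 to 12.26 in WT and 10.10 to 12.30 in L12-ECKO. Rpl6 was among those with the smallest p in L12YT-ECKO against WT, at a log2 difference of -0.62 ± 0.36 (adjusted p = 0.824); its WT values ran from 9.75 to 11.06 and its L12YT-ECKO values from 9.53 to 10.21. Rpl12, at the base of the stalk, and Rpl8, beside the peptidyl transferase centre, had opposite signs in L12YT-ECKO against L12-ECKO, -0.77 ± 0.46 (adjusted p = 0.873) and 0.37 ± 0.24 (adjusted p = 0.901). Rpl32 had a residual SD of 0.24 and means of 11.62, 12.07 and 11.82 in WT, L12-ECKO and L12YT-ECKO, and Rpl22 means of 14.10, 13.98 and 13.94.

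3 large-subunit members varied most between libraries of a group. Rpl30, also known for repressing splicing of its own transcript in yeast, had a residual SD of 1.48, with WT values of 8.72, 10.18, 11.38 and 9.0 and L12-ECKO values of 11.63, 11.06, 11.88 and 7.68. Rpl34 had a residual SD of 1.32, with WT replicate 1 at 10.56 and the other WT libraries at 12.50 to 13.57, and L12YT-ECKO replicate 3 at 10.27 and the others at 13.15 to 13.89. Rpl29, which can be deleted in mice at the cost of growth, had a residual SD of 1.09, with WT values from 5.37 to 8.99. For each of these the groups overlapped across most of their range. The median residual SD was 0.44 over the 76 members, and 0.48 over 3201 other genes with a mean value above 9.

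Among small-subunit members, Rps20 (ENSMUSG00000028234.6, chr4:3831334-3835665, minus strand), of the head of the subunit, had the smallest p in L12-ECKO against WT. Its values were 13.95, 13.79, 13.58 and 13.89 for WT, 13.62, 13.25, 13.04 and 12.40 for L12-ECKO and 13.43, 13.72, 13.30 and 13.56 for L12YT-ECKO. L12-ECKO replicate 1 overlapped WT, and the other 3 were below it. The difference from WT was -0.73 ± 0.23 in L12-ECKO (adjusted p = 0.191) and -0.30 ± 0.23 in L12YT-ECKO (adjusted p = 0.864). Without L12-ECKO replicate 4 the former was -0.50, and among the libraries without displaced rows, with L12-ECKO replicate 1 alone, it was -0.18.

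Rps12 (ENSMUSG00000061983.7, chr10:23785183-23787275, minus strand), a protein of the beak of the subunit known in flies for its part in cell competition, was higher in L12-ECKO. It had values of 9.18, 9.21, 8.83 and 9.29 for WT, 10.22, 9.86, 10.35 and 9.43 for L12-ECKO and 9.41, 9.92, 9.39 and 9.18 for L12YT-ECKO. The L12-ECKO libraries did not overlap WT, by a narrow gap in replicate 4, and the L12YT-ECKO libraries overlapped both groups. L12-ECKO differed from WT by 0.84 ± 0.33 (adjusted p = 0.312), and by 1.09 among the libraries without displaced rows, with L12-ECKO replicate 1 alone. Rps9, of the small-subunit body, did not overlap either, with WT values of 13.08 to 13.35 and L12-ECKO values of 13.40 to 13.94, at a log2 difference of 0.40 ± 0.24 (adjusted p = 0.507).

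Rps6 (ENSMUSG00000028495.14, chr4:86854660-86857412, minus strand) is the protein that S6 kinases phosphorylate when mTORC1 is active, and it had the smallest p in L12YT-ECKO against WT. Its values were 10.29, 9.84, 9.38 and 9.95 for WT, 9.72, 9.42, 9.23 and 9.41 for L12-ECKO and 9.34, 9.89, 8.85 and 8.56 for L12YT-ECKO. The ranges of all 3 groups overlapped. The difference of L12YT-ECKO from WT was -0.71 ± 0.36 (adjusted p = 0.805), and with a term for the displaced rows it was -0.37.

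Rps15a (ENSMUSG00000008683.16, chr7:118104372-118116188, minus strand) differed by -0.67 ± 0.32 (log2) between L12YT-ECKO and L12-ECKO, being lower in the former (adjusted p = 0.811). It had values of 11.47, 11.31, 11.09 and 10.61 for WT, 10.99, 11.74, 11.63 and 10.71 for L12-ECKO and 10.51, 11.28, 10.28 and 10.33 for L12YT-ECKO, with overlap between all groups. Among the 7 libraries without displaced rows, with L12-ECKO replicate 1 alone, the difference of L12YT-ECKO from L12-ECKO was -0.09. Among the 5 with them it was -1.05. Rows of copies, Rps15a-ps4 and Rps15a-ps6, are listed beside it.

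**Figure D4:**
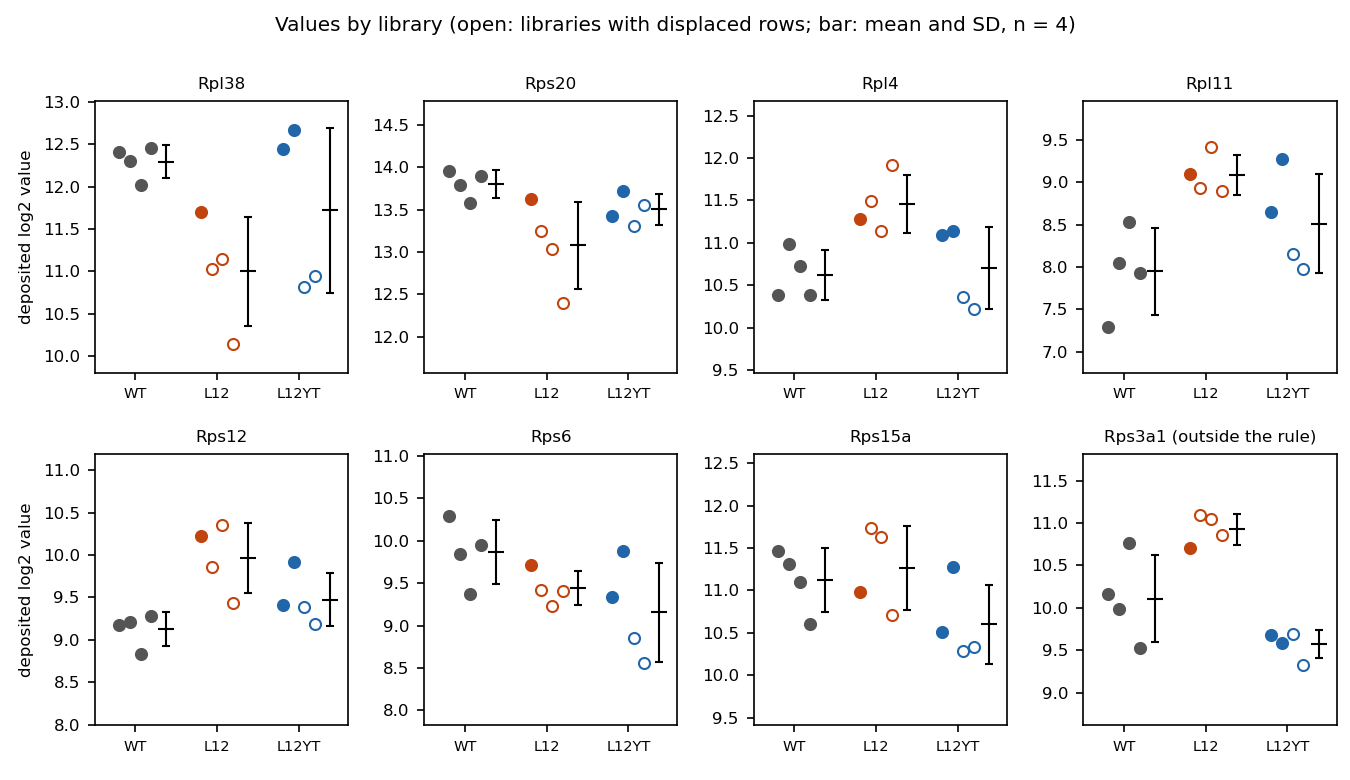
Deposited log2 value (y axis, the same span of 3.2 in each panel) by group (x axis; L12 stands for L12-ECKO, L12YT for L12YT-ECKO) for 7 members and Rps3a1; points are libraries, open where the library has displaced rows, and bars give mean and SD (n = 4). Rpl38 is lower in the 5 open points (10.14 to 11.14) than in the 7 filled ones (11.70 to 12.67), and Rps3a1 is higher in L12-ECKO (10.70 to 11.10) than in L12YT-ECKO (9.33 to 9.69).

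Further small-subunit members overlapped between groups. Rps19, whose loss of a copy is the most frequent known cause of Diamond-Blackfan anaemia, a failure of red cell production, was 8.57 ± 0.61 for WT, 8.89 ± 0.43 for L12-ECKO and 8.90 ± 0.36 for L12YT-ECKO. Rps10, another gene of that disease, differed from WT by -0.76 ± 0.37 in L12-ECKO (adjusted p = 0.42), with 10.49 to 11.24 in WT and 10.60, 10.86, 10.24 and 8.93 in L12-ECKO. Rpsa, also described as a laminin receptor precursor, was 10.71 ± 0.20 for WT, 10.44 ± 0.62 for L12-ECKO and 10.39 ± 0.13 for L12YT-ECKO. Rps27a, made as a fusion with ubiquitin, was 12.19 ± 0.30, 12.69 ± 0.21 and 12.52 ± 0.61 (SD, n = 4). Rps4x, on X, had the smallest residual SD of all members (0.19), with group means of 11.12, 11.20 and 11.05.

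Proteins of the same ribosome that the symbol rule leaves out gave values of their own. Rps3a1, a small-subunit protein, was at 10.16, 9.98, 10.76 and 9.52 for WT, 10.70, 11.10, 11.05 and 10.86 for L12-ECKO and 9.68, 9.59, 9.69 and 9.33 for L12YT-ECKO. L12YT-ECKO lay below L12-ECKO without overlap, at a log2 difference of -1.36 ± 0.31 (limma, adjusted p = 0.141), and L12-ECKO differed from WT by 0.82 ± 0.31 (adjusted p = 0.273). Fau, a fusion of a ubiquitin-like protein with a small-subunit protein, differed from WT by -0.51 ± 0.31 in L12-ECKO (adjusted p = 0.51), and Gnb2l1, which encodes the ribosome-bound scaffold Rack1, by 0.04 ± 0.25. Of the paralogs outside the rule, Rps27l (0.67 ± 0.41), Rpl22l1 (0.57 ± 0.40), Rpl36al (0.54 ± 0.35) and Rpl7l1 (-0.72 ± 0.41) had adjusted p from 0.493 to 0.561 in that comparison. Rpl39l and Rpl3l were listed at 0 in 9 of 12 libraries each, and Rpl10l in all 12.

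Reads could be shared between members and copies. For 16 of 76 members the last 100 bases of the annotated transcript match another annotated gene at 95% identity or more over at least 90 bases, and the deposited tables give rows to further copies whose symbols end in -ps or rt. The search found 0 copies for Rpl34, Rplp2 and Rpl37, which have such rows, so it does not give the full extent of sharing. Rpl34 and Rpl34-ps1 had a correlation of 0.999 across the 12 libraries, and Rps27 and Rps27rt one of 0.997. Rplp2-ps1 had a mean value of 14.41 against 12.21 for Rplp2, and Rpl37rt one of 12.25 against 10.56 for Rpl37. The values of these members are uncertain for that reason. Summed with its copy on the linear scale, Rpl34 was 0.74 higher in L12-ECKO than in WT on the log2 scale (0.72 alone), while Rpl37 stood at -0.52 with Rpl37rt (-0.04 alone). These sums have no test.

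Members moved together from library to library. With each gene taken as its deviation from its group mean, the median correlation over the 2850 pairs of members was 0.47 across the 12 libraries, and 89.8% of pairs were above 0. The median was 0.44 within the large subunit and 0.53 within the small. Over 77 mitochondrial ribosomal proteins it was 0.05, over 25 other TOP-mRNA translation factors 0.07, and over pairs of 3200 other genes with a mean above 9 it was 0.00. All pairs share the same libraries, and with them library quality and cell make-up. Median member shifts spanned -0.66 to 0.20 in L12-ECKO but -0.11 to 0.05 in WT. The lists were not matched to the members in transcript length. Other tested genes under 600 bases also had low median shifts in L12-ECKO replicate 4 (-1.30) and L12YT-ECKO replicates 3 and 4 (-0.53 and -0.74). A length-matched set was not compared, so co-movement is not shown to be particular to ribosomal protein genes. The genes outside the rule whose values over 12 libraries were most like the member median were Tmem256 (r = 0.93), BC018473 (r = 0.92), Cox7a2 (r = 0.92), Mgat4b (r = 0.92) and 2310039H08Rik (r = 0.91), followed by Snrpe, Tspan9, Rps27rt, Uqcr11 and Wdr41 (r = 0.90 to 0.89). These genes were picked for the highest r among all tested genes outside the rule, so selection alone raises their r, and no test was made. Annotated transcripts were 374 to 762 bases for Tmem256, Cox7a2, 2310039H08Rik, Snrpe, Rps27rt and Uqcr11, and 1405 to 4753 for BC018473, Mgat4b, Tspan9 and Wdr41.

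Other genes of the translation machinery were described from lists, none of which held a gene with an adjusted p under 0.05 in any of the 3 comparisons. Mitochondrial ribosomal proteins (77 tested), which build the separate ribosome of mitochondria, had median differences of 0.00, -0.05 and 0.03 in L12-ECKO against WT, L12YT-ECKO against WT and L12YT-ECKO against L12-ECKO, with 3, 3 and 0 genes at an unadjusted p under 0.05, a level met by 12.2%, 6.24% and 6.08% of all genes tested. TOP-mRNA translation factors (25 tested) had medians of 0.10, -0.03 and -0.17, with 5, 1 and 2 at that level. Among them Eif4a2, an RNA helicase of initiation, was at 10.06, 10.09, 10.25 and 9.42 for WT, 11.51, 10.43, 11.22 and 12.24 for L12-ECKO and 11.31, 10.87, 11.53 and 11.71 for L12YT-ECKO. It differed from WT by 1.40 ± 0.35 in each deletion group (adjusted p = 0.0864 and 0.479). Hnrnpa1 differed from WT by 0.79 ± 0.27 in L12-ECKO (adjusted p = 0.225). The members' own sublists had median differences from WT in L12-ECKO of -0.10 (Diamond-Blackfan anaemia genes, 18 members, 7 higher and 11 lower), -0.22 (exit tunnel, 10 members, 2 higher and 8 lower) and 0.09 (stalk, 3 members).

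Host genes of small nucleolar RNAs, whose spliced transcripts also begin with TOP tracts, held 0 genes that passed the test. Of 9 tested, 8 were higher in L12-ECKO than in WT (median difference 1.68, 4 at an unadjusted p under 0.05) and 6 in L12YT-ECKO (median 0.62, 2 at that level), where 12.2% and 6.24% of all genes tested were at that level. Snhg8 was at 7.76, 9.17, 10.10 and 9.35 for WT, 11.30, 10.49, 10.46 and 10.83 for L12-ECKO and 10.25, 10.26, 10.60 and 10.24 for L12YT-ECKO, with adjusted p of 0.0768 and 0.633. Snhg12 was listed at 0 in 3 of 4 WT libraries and at 5.63 in WT replicate 4, within the 5.17 to 7.23 of L12-ECKO. The summed level of the 9 was 11.18 to 11.40 in WT, 11.96 to 12.45 in L12-ECKO and 11.53 to 12.20 in L12YT-ECKO.

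Genes upstream and downstream of the ribosome were read in the same way. The mTORC1 and TOP control list (23 tested) had medians of 0.04, 0.13 and 0.03 in the 3 comparisons, with 2, 1 and 1 genes at an unadjusted p under 0.05. That level was met by 12.2%, 6.24% and 6.08% of all genes tested. Rraga, a Rag GTPase that brings mTORC1 to the lysosome, was at 10.17 to 10.93 in WT, 11.08 to 12.41 in L12-ECKO and 10.41 to 11.21 in L12YT-ECKO, 1.22 ± 0.31 above WT in L12-ECKO (adjusted p = 0.0983); Rhebl1, a relative of the mTORC1 activator Rheb, was 1.37 ± 0.61 above WT in L12YT-ECKO (adjusted p = 0.763). Ribosome biogenesis genes (42 tested) had medians of 0.04, 0.30 and 0.09, with 7, 3 and 1 at that level; Max, the partner of Myc, and Nolc1, a nucleolar chaperone, were 1.18 ± 0.37 and 1.29 ± 0.45 above WT in L12-ECKO (adjusted p = 0.19 and 0.24). The list for nonsense-mediated decay and quality control (18 tested) had medians of -0.18, 0.01 and 0.35, with 1, 2 and 1 at that level, and its named genes were Atf4 (0.73 ± 0.23 above WT in L12YT-ECKO, adjusted p = 0.618) and Gcn1l1 (-1.13 ± 0.41 in L12-ECKO, adjusted p = 0.255).

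Genes of p53 and ribosomal stress, which respond when free Rpl5 and Rpl11 hold Mdm2, held 0 genes that passed the test. Of 13 tested, 11 were higher in L12-ECKO than in WT (median difference 1.04, 6 at an unadjusted p under 0.05) and 13 in L12YT-ECKO (median 1.09, 4 at that level). Over all 11634 genes tested, 5697 and 6318 were higher and 12.2% and 6.24% were at that level. The summed level was 12.96 to 13.32 in WT, 13.56 to 14.12 in L12-ECKO and 13.53 to 14.28 in L12YT-ECKO. Bax, which promotes apoptosis, was at 10.78, 10.21, 9.93 and 10.57 for WT, 11.32, 11.75, 11.17 and 11.43 for L12-ECKO and 11.26, 11.25, 12.004 and 11.48 for L12YT-ECKO, with adjusted p of 0.116 and 0.479. Both deletion groups lay above WT without overlap. Phlda3, a p53 target that inhibits Akt, differed from WT by 1.34 ± 0.33 in L12YT-ECKO (adjusted p = 0.479) and by 0.44 ± 0.33 in L12-ECKO (adjusted p = 0.598). These comparisons share the WT libraries, and these lists were drawn up with earlier results of these data known.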

How the data were processed

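Endothelial RNA of 12 libraries was read near transcript 3′ ends (QuantSeq, per the labels' protocols). Bowtie2, edgeR and mm10 are named in the submitters' processing notes, with no roles or versions. The authors deposited log2 values per gene, 1 table per library; no source states the scale, and the log2 base and the shared quantiles were read off the columns themselves, so a change in total output is removed, and depth is unknown. Groups and replicate numbers came from the titles. 34 displaced or exchanged rows were left out, and 11634 genes were tested: 2 to the power of the value, scaled to CPM, at least 1 in at least 4 libraries. limma 3.58.1 (R 4.3.3; trend and robust prior) fitted 3 group means over 12 libraries, with Benjamini-Hochberg adjustment over all genes tested and a call at adjusted p under 0.05; it was tested on simulated data. Copies were searched with blastn 2.17.0. Members and lists were chosen with earlier results of these data known. Named members are the 6 with the smallest p in each comparison, the 3 highest, lowest, most and least variable, and a fixed set by role; from each list, the 2 genes with the smallest p. Some genes that this rule names are not reported here. Replicate numbers did not pair libraries. Alternatives changed filter, floor, scaling, prior, libraries, and terms for displaced rows, sex, replicate block and length.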

Additional observations from a re-analysis of the deposited data

Results flagged for a closer look

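4 values of named members stood apart from the other libraries of their group by Dixon's test, out of 93 groups of 4 examined (30 named members and the member median, in 3 groups each); chance gives about 1 in 20. 3 were low values in L12-ECKO replicate 4. Rpl23a was 5.44 there and 7.59 to 7.85 in the other 3 L12-ECKO libraries. Rpl6 was 9.19 there and 10.30 to 10.51 in the others. Rplp1 was 13.46 there and 14.36 to 14.50 in the others. Rpl5 was 10.56 in L12YT-ECKO replicate 2 and 9.98 to 10.06 in the other 3. Over all 76 members and 3 groups, 12 of 228 groups of 4 (5.26%) held such a value.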

How the results depend on the processing

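The count of members called was 0 in each comparison under all 25 or 26 alternatives, the smallest adjusted p of any member being 0.113 (Rpl38 in L12-ECKO against WT, fitted on the 2 groups alone); members at an unadjusted p under 0.05 ranged from 1 to 9, 0 to 4 and 0 to 6. The median member difference ranged from -0.12 to 0.19, -0.23 to 0.12 and -0.27 to 0.00, and its sign turned in 7, 3 and 1 alternatives. It moved by less than the spread of single libraries' median shifts within a group (SD 0.30, pooled over the groups). That is a lenient measure, because a difference between means of 4 libraries has a smaller error. With a term for displaced rows the differences from WT went from -0.03 to 0.19 and from -0.12 to 0.10. Of 2190 values of 30 named members under alternatives, 15 moved by more than the gene's residual SD and 0 were called. With the replicate number as a block, 0 members were called in each comparison and 8, 0 and 3 had an unadjusted p under 0.05; same-numbered libraries correlated at -0.05 to 0.06, and 4 of 12 correlated best with their own number. All genes called numbered 7 to 87, 0 to 3 and 0 to 14 over the alternatives, against 56, 1 and 8 (7 and 0 and 3 with no trend in the variance prior, 15 in the first comparison with a term for displaced rows or for sex or without WT replicate 2); with the block they were 43, 1 and 6. The mean over members in place of the median moved the WT level beyond the group's SD in replicate 2 (10.63) and replicate 3 (10.55). Depth is unknown and 4 libraries a group limit detection.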
